A study of Caenorhabditis elegans with 13 samples.

Results

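Body wall muscle cells of Caenorhabditis elegans embryos were profiled at 2 times, and the question taken up here is which genes became more or less enriched in muscle, relative to all embryonic cells, between those times. The measure is a difference of differences: the log2 enrichment of muscle over reference at 24 hr less the log2 enrichment of muscle over reference at 0 hr. All 13 of the 13 arrays of the series entered it. Muscle cells came from the strain PD4251, which carries the integrated transgene ccIs4251 with myo-3::GFP, a reporter driven by the promoter of a body wall muscle myosin gene. They were isolated by fluorescence-activated sorting either directly after embryos were dissociated (M0, 3 arrays) or after the cells had been kept on coated dishes for 24 hr (M24, 3 arrays). The reference held every living cell of dissociated N2 wild-type embryos, sorted either at once (R0, 3 arrays) or following the same 24 hr on dishes (R24, 4 arrays). No group carried a mutation or received a drug, and all went through bleach release of embryos, chitinase treatment and sorting.

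Several features of these groups bear on every value below. The reference contains muscle cells, so enrichment is muscle against a mixture that includes it, and the sorted muscle held a minority of cells without GFP per the labels. The myo-3 promoter marks body wall muscle and also anal and vulval muscle. The reference was described as N2 in 1 sentence of the labels' growth protocol while another names myo-3::GFP adults for all samples, and strain and cell type cannot be told apart in muscle against reference. The 24 hr culture differs from the 0 hr cells both in age and in being out of the embryo, and those cannot be told apart either.

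C. elegans body wall muscle is striated muscle in which thick filaments of myosin and paramyosin and thin filaments of actin, tropomyosin and troponin are held in place by integrin attachments to the basement membrane. The bHLH factor HLH-1 and the MADS box factor UNC-120 drive the muscle fate early in the embryo, and myosin, actin and attachment proteins are made before the body elongates. Embryonic cells plated in culture go on to take their fate: muscle precursors lengthen, assemble filaments and contract, while neurons in the same dish send out processes. Enrichment can therefore move because muscle changes, because the reference changes, or because cell types become a different share of the reference.

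Intensities are RMA values, a probe summary made after background correction and quantile normalization. For a gene, the brightest of the probe sets that name it alone was used, which covers 17118 genes on 22548 probe sets. Enrichment at a time is the difference of group mean log2 intensities (M0 less R0, or M24 less R24), called raised or lowered where limma's p, adjusted by Benjamini-Hochberg across the 22548 probe sets, was under 0.05 and the fold was 1.7 or more. "Gained" and "lost" mean that the difference between the enrichment at 24 hr and at 0 hr passed the same thresholds. Since a bulk array cannot tell fewer cells of a type from less RNA per cell, a level is a level in the whole preparation. Levels were never set against each other across the 2 times, because the values of the 2 times came from separate RMA runs; only the differences within a time were compared.

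Replicates within R0, M0 and R24 correlated with R² between 0.904 and 0.971. M24 replicate 3 stood apart from the other M24 arrays (R² = 0.858 with replicate 1 and 0.797 with replicate 2), and its log2 values spanned less, with a distance from the lowest to the highest decile of 3.91 against 4.50 and 4.86 in the other M24 arrays. All values below include it. Medians over gene lists moved with single arrays. Of 46 lists, 25 kept the sign of their median difference whichever array was left out and 21 did not. Without M24 replicate 3, 7 turned, and without M24 replicate 2, 8 did. Arrays of other groups turned some too, such as R0 replicate 2 for neuropeptide and cytosolic ribosome genes. No recorded scan day held both muscle and reference at 24 hr, where scan day and group cannot be told apart. At 0 hr, a shared scan day held M0 replicate 1 with R0 replicate 1, and another held M0 replicate 2 with R0 replicate 3. All 0 hr arrays were of 1 chip lot and all 24 hr arrays with a record were of another, so lot and time cannot be told apart. R24 replicate 4 has no such record. The study cites an earlier publication for the R24 experiments. The label of muscle was borne out at both times: myo-3 reached intensities of 603, 484 and 1364 in M0 against 136, 57.7 and 149 in R0, and of 543, 442 and 254 in M24 against 131, 146, 90.4 and 95.6 in R24.

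Muscle enrichment shifted in both directions in similar numbers. Of 17118 genes, 178 gained enrichment (1.04%) and 163 lost it (0.952%), 341 in all (1.99%). Among probe sets the counts were 211 gained (0.936%) and 224 lost (0.993%) of 22548. Without any adjustment, 2282 genes had p under 0.05. The median difference over all genes was 4.22e-05 on the log2 scale, and 50.02% of genes were above 0. Enrichment at the 2 times correlated across genes (Pearson r = 0.648, Spearman rho = 0.563), genes not being independent replicates. The size of the differences ranged from 0.80 to 4.37 among gained genes, with a median of 1.57, and from 0.88 to 4.49 among lost genes, with a median of 1.92. On leaving out single arrays, the count of gained probe sets ranged from 92 (without R24 replicate 2) to 420 (without M24 replicate 3), and that of lost ones from 114 (without R0 replicate 3) to 302 (without R24 replicate 1). The calls of 142 of the 341 genes held whichever array was left out, 67 among the gained and 75 among the lost.

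**Figure D1:**
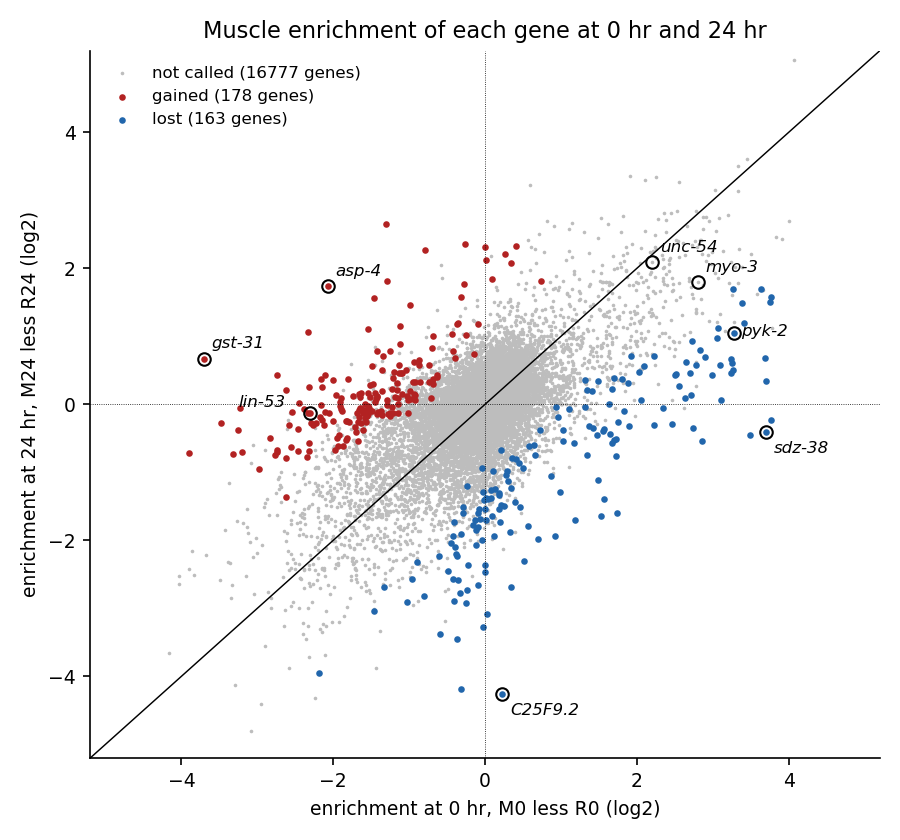
Each point is a gene, with the log2 enrichment of muscle over reference at 0 hr on the x axis and at 24 hr on the y axis, and the diagonal marks equal enrichment. The 178 gained genes lie above the diagonal, mostly left of 0 and close to 0 in height, and the 163 lost genes lie below it in 2 arms, 1 along the right and 1 downwards, while myo-3 and unc-54 lie high on both axes.

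Most gained genes were lower in muscle than in the reference at 0 hr. Of the 178, 142 (79.8%) were lowered in muscle at 0 hr and neither raised nor lowered at 24 hr, with a median enrichment of -1.64 at 0 hr and -0.06 at 24 hr. A further 21 (11.8%) were raised at 24 hr and uncalled at 0 hr, with a median of 1.77 at 24 hr. Only 5 went from lowered to raised, 9 were called at neither time and 1 was lowered at both. Lost genes took 2 routes: 75 of 163 (46.0%) were uncalled at 0 hr and lowered at 24 hr, where their median was -1.73, and 63 (38.7%) were raised at 0 hr, with a median of 2.03, and uncalled at 24 hr, with a median of 0.07. Another 9 were raised at both times, 7 lowered at both, 3 went from raised to lowered and 6 were called at neither. Each enrichment is one side of the difference, so these shares are descriptive. Leaving out M24 replicate 3 moved the genes raised at 24 hr alone from 21 to 128, and leaving out R24 replicate 2 or M24 replicate 1 moved them to 7. The other groups shrank to as few as 69 (lowered at 0 hr, without R24 replicate 2), 38 (lowered at 24 hr, without M0 replicate 3) and 40 (raised at 0 hr, without R24 replicate 2), and the genes lowered at 24 hr rose to 126 without R24 replicate 1.

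Being called at 1 time alone was seldom a tested difference. At 0 hr, 634 genes (3.7%) were raised in muscle and 1323 (7.73%) lowered, and at 24 hr 574 (3.35%) were raised and 1370 (8.0%) lowered. Of the 363 genes raised at 0 hr and not at 24 hr, 66 (18.2%) lost enrichment by the test of the difference. Of the 303 raised at 24 hr and not at 0 hr, 26 (8.58%) gained it. For the other genes of these sets, the 2 enrichments differed by less than this test could call.

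The genes that make muscle contract gave no call, though a list of their size would hold few at the shares of all genes. Across thick filament, thin filament, attachment, dystrophin complex, postsynaptic receptor, and calcium and excitation genes, 108 were measured. By limma 0 gained and 0 lost enrichment, against 1.04% and 0.952% of all genes, while 18 had an unadjusted p under 0.05. Muscle enrichment was present at both times for 50 of them, at 0 hr for 60 and at 24 hr for 61. The median difference was -0.16, or 0.03 without M24 replicate 3, with 43 of 108 above 0 against 50.02% of all genes, and the smallest adjusted p was 0.0597. Across these genes the enrichments at the 2 times had a Pearson r of 0.79, as a description of genes on the same arrays. Leaving out M24 replicate 3 called 4 of them gained, and leaving out M0 replicate 2 or R0 replicate 1 called 1. Leaving out M24 replicate 2 called 4 lost, and leaving out M0 replicate 2 or R24 replicate 3 called 1. The missing calls do not show equal enrichment, since the typical standard error of a gene's difference was 0.30.

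Thick filament genes encode myosin heavy and light chains, paramyosin and their partners. Their median enrichment was 1.59 at 0 hr and 1.96 at 24 hr over 11 genes, with 9 differences above 0. By array the median level relative to the reference mean was 1.53, 1.48 and 1.83 in M0. In M24 replicates 1 to 3 it was 2.25, 2.32 and 1.23, so that M24 replicate 3 lay below every M0 array. The median difference was 0.42, or 0.24 without M24 replicate 2 and 0.71 without M24 replicate 3. The myosin heavy chain gene unc-54 had an enrichment of 2.20 at 0 hr and 2.09 at 24 hr (difference -0.11 ± 0.65, SE, adjusted p = 0.979). For myo-3, the minor myosin heavy chain whose promoter drives the reporter, these were 2.80 and 1.79 (difference -1.01 ± 0.60, adjusted p = 0.556). The smallest p of the list belonged to mlc-1, a myosin regulatory light chain, at 0.81 and 1.62 (difference 0.81 ± 0.40, adjusted p = 0.428), and unc-15, paramyosin, had 1.94 and 2.36. Thin filament genes went the other way in the median, 2.14 at 0 hr and 1.67 at 24 hr over 20 genes with 14 differences below 0. Their median difference was -0.37, or -0.57 without M24 replicate 1, -0.06 without M24 replicate 3 and -0.03 without R0 replicate 2. At 0 hr the medians within the 2 shared scan days were 1.20 and 1.61 for thin and 1.41 and 1.37 for thick filament genes. Both thin filament values lay below the 24 hr median, so the fall was not seen within those days. The troponin T gene tnt-3 had 2.79 and 1.35 (difference -1.44 ± 0.58, adjusted p = 0.299).

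Attachment genes, which tie the filaments to the cell membrane and matrix, had a median difference of -0.17 over 22 genes, and 14 lay below 0. The median was -0.31 without M24 replicate 1 and turned to 0.06 without M24 replicate 3, so its direction rests on that array. The β-integrin gene pat-3, which starts the assembly of attachments, measured 1945, 2247 and 1816 in M0 against 991, 968 and 1009 in R0. At 24 hr it measured 1268, 1431 and 908 in M24 against 1174, 1410, 878 and 1295 in R24. The groups were apart at 0 hr and overlapped at 24 hr, yet the difference between the enrichments, 1.01 at 0 hr and 0.01 at 24 hr, had an adjusted p of 0.103 (the other pat-3 probe set gave a difference of -1.93). The α-parvin gene pat-6 fell short as well, with enrichments of 1.64 and 0.68 (difference -0.96 ± 0.32, adjusted p = 0.193). For unc-70, β-spectrin, the enrichments were 0.58 and 0.85 (difference 0.27 ± 0.37, adjusted p = 0.861). These last 2 genes and unc-15 were named after their values were seen.

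In the dystrophin complex, which links the cytoskeleton to the matrix and holds ion channels at the membrane, 11 of 14 differences lay below 0. The dystrophin gene dys-1 is not among these 14, as no probe set was assigned to it alone. The list of the complex had a median enrichment of 1.40 at 0 hr and 0.76 at 24 hr (median difference -0.29, or -0.56 without M24 replicate 2 and -0.14 without M24 replicate 3). Its smallest p, and the smallest of all structural genes, was that of the γ-syntrophin gene stn-2: 1415, 1160 and 1560 in M0 against 394, 440 and 309 in R0, and 787, 950 and 594 in M24 against 486, 624, 387 and 612 in R24. Muscle was far above reference at 0 hr and overlapped it at 24 hr, with a difference of -1.30 ± 0.32 (adjusted p = 0.0597). Basement membrane genes, 22 in number, had a median difference of -0.02, and mig-17, a secreted metalloprotease made by muscle, had enrichments of 3.84 and 2.46 (difference -1.38 ± 0.42, adjusted p = 0.138).

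Receptors of the neuromuscular junction split evenly, 9 above and 9 below 0 (median -0.02). The nicotinic receptor gene acr-16 was at 45.5, 68.3 and 57.4 in M0 against 37.5, 51.8 and 47.8 in R0, overlapping, and at 59.0, 52.8 and 71.6 in M24 against 24.9, 23.5, 24.9 and 23.1 in R24, with no overlap. Its difference was 1.02 ± 0.25 (adjusted p = 0.0614). The receptor subunit genes lev-8 and unc-29 moved in the opposite sense without passing, at -1.77 ± 0.54 (adjusted p = 0.145) and -0.41 ± 0.50 (adjusted p = 0.842). Calcium and excitation genes had a median of -0.15 over 23 genes, which turned to 0.03 without M24 replicate 3. The calcium-activated potassium channel gene slo-2 was lowered in muscle at 0 hr (-1.72) and not at 24 hr (-0.34), with a difference of 1.38 ± 0.34 (adjusted p = 0.0614). The calsequestrin gene csq-1, for the protein that binds calcium in its store, was raised at both times (3.13 and 2.25, difference -0.88 ± 0.52, adjusted p = 0.548), and so was the calcium pump gene sca-1 (1.02 and 1.81, difference 0.79 ± 0.26, adjusted p = 0.178), whose other 3 probe sets lay below 0. The genes lev-8, unc-29, csq-1 and sca-1 were named after their values were seen.

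**Figure D2:**
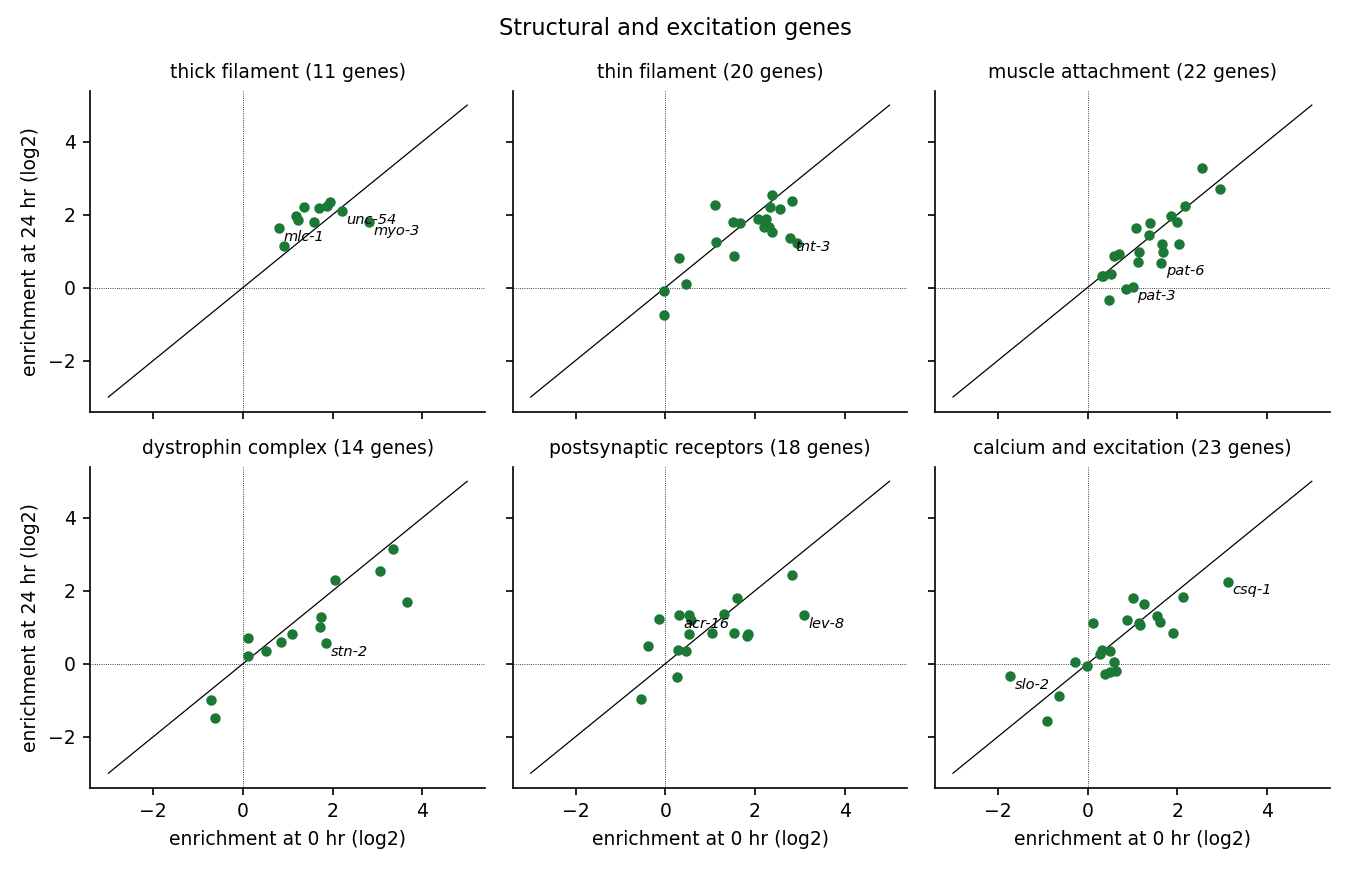
Each panel is a list of muscle genes, with log2 enrichment at 0 hr on the x axis, log2 enrichment at 24 hr on the y axis and a diagonal of equal enrichment. Most of the 108 genes lie at the upper right near the diagonal, stn-2, pat-3, tnt-3 and lev-8 lie below it, and none was called.

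The transcription factors of the muscle lineage were likewise uncalled. The 22 myogenic and mesoderm factors had a median difference of -0.22, or -0.02 without M24 replicate 3. For hlh-1 the enrichment was 2.61 at 0 hr and 2.38 at 24 hr (difference -0.24 ± 0.35, adjusted p = 0.877), and for unc-120 it was 2.22 and 2.26 (difference 0.04 ± 0.59, adjusted p = 0.989). The closest to a call was mls-1, a T-box gene that specifies non-striated muscle, which went from -0.35 to 0.45 (difference 0.80 ± 0.19, adjusted p = 0.0508). Among 25 innexins, the gap junction channel proteins, inx-20 gained enrichment (-1.58 at 0 hr, 0.00 at 24 hr, difference 1.57 ± 0.31, adjusted p = 0.0223). That call was lost without M0 replicate 3, R0 replicate 3 or R24 replicate 2 (adjusted p up to 0.0610). On every M24 and R24 array inx-20 lay far below the median intensity of the array and close to its lowest values. Muscle and reference were thus level near background at 24 hr, which does not show a rise of inx-20 in muscle.

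Glutathione S-transferases, enzymes that join glutathione to reactive and foreign compounds, held several of the gains. Of 43 measured, 6 gained and 1 lost enrichment, against 1.04% and 0.952% of all genes, 33 of 43 lay above 0, and the median difference was 0.51. The median enrichment was -0.41 at 0 hr and 0.16 at 24 hr. Of 20 members with an unadjusted p under 0.05, 17 lay above 0. The count of gained members ranged from 3 (without M24 replicate 1, R0 replicate 1, R0 replicate 3, R24 replicate 2 or R24 replicate 3) to 8 (without R24 replicate 1).

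gst-31 had the largest gain of any gene. It measured 115, 44.9 and 103 in M0 against 1197, 947 and 1035 in R0, and 1425, 1481 and 1273 in M24 against 1344, 827, 929 and 563 in R24. Muscle was about an order of magnitude below reference at 0 hr, and at 24 hr the groups overlapped, for a difference of 4.37 ± 0.47 (adjusted p = 0.00137). gst-39 followed the same course: 1379, 707 and 1138 in M0 against 7554, 6432 and 6795 in R0, then 5529, 6424 and 6714 in M24 against 6059, 4185, 3929 and 4495 in R24. Its difference was 3.17 ± 0.32 (adjusted p = 9.62e-04), and both calls held without any single array.

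Other transferases moved from lowered to uncalled, or from uncalled to raised. gst-5 went from -2.17 to 0.38 (difference 2.55 ± 0.59, adjusted p = 0.0488) and gst-33, named after its values were seen, from -1.55 to 0.16 (difference 1.71 ± 0.26, adjusted p = 0.00755). The omega-class genes gsto-3 and gsto-2 were level with the reference or near it at 0 hr, at -0.01 and -0.44, and raised at 24 hr, at 2.32 and 1.04 (differences 2.33 ± 0.50, adjusted p = 0.0357, and 1.47 ± 0.30, adjusted p = 0.0260). gst-22 was the exception and lost enrichment, from 1.57 to -0.37 (difference -1.94 ± 0.34, adjusted p = 0.0148). The call of gst-5 was kept only without M0 replicate 3 or R0 replicate 2 and reached an adjusted p of 0.133 otherwise, and that of gsto-3 only without M24 replicate 2, M24 replicate 3 or R24 replicate 1 (up to 0.0898). The call of gsto-2, chosen after its values were seen, was lost without M0 replicates 1 or 2, M24 replicate 1, R0 replicates 1 or 3, or R24 replicates 2 or 3 (up to 0.0678).

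Enzymes that keep glutathione and thiols reduced were looked at after these values were seen. Of 21 genes, 3 gained and 0 lost enrichment, against 1.04% and 0.952% of all genes, and 13 differences lay above 0 (median 0.18). Since the list was set up with values known, its count is no independent evidence. Glutathione reductase, gsr-1, measured 396, 227 and 509 in M0 against 1771, 639 and 990 in R0, and 3653, 3819 and 2227 in M24 against 1356, 1129, 1387 and 2094 in R24. Every muscle array was below every reference array at 0 hr and above every one at 24 hr, with a difference of 2.65 ± 0.53 (adjusted p = 0.0251), lost without M0 replicates 1 or 2, M24 replicate 1, R0 replicates 1 or 3, or R24 replicate 2 (up to 0.0665). The peroxiredoxin gene prdx-2, which removes hydrogen peroxide, was the 1 gained gene of 32 heat shock and stress genes (median -0.13), at -1.16 and 0.32 (difference 1.48 ± 0.34, adjusted p = 0.0497). Its call was kept only without M0 replicate 1, M24 replicate 3, R0 replicate 2 or R24 replicate 1, and otherwise reached 0.120. The third gain was the glutaredoxin gene glrx-10, at -0.25 and 1.01 (difference 1.26 ± 0.29, adjusted p = 0.0435), kept only without R0 replicate 2 and otherwise up to 0.108.

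**Figure D3:**
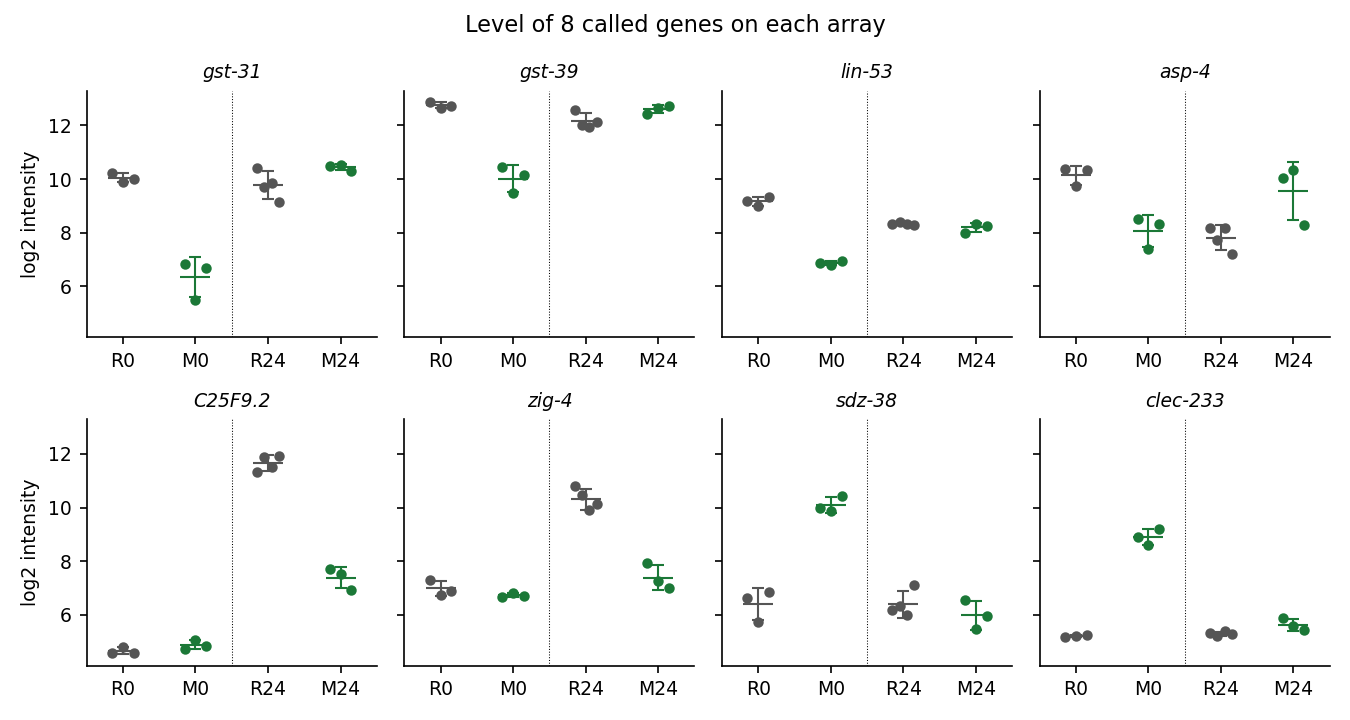
Points are the arrays of each group in log2 intensity, with bars at the mean ± SD, and the dotted line separates 0 hr from 24 hr, which were normalized apart. In gst-31, gst-39 and lin-53 the M0 arrays lie below R0 while M24 lies at the level of R24, in asp-4 muscle turns from below to above reference, in C25F9.2 and zig-4 muscle parts from reference at 24 hr alone, and in sdz-38 and clec-233 at 0 hr alone.

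Lysosomal enzymes supplied other large gains, though not as a list: of 29 lysosomal protease and autophagy genes, 2 gained and 1 lost enrichment, with a median of -0.10. asp-4, a cathepsin D-like aspartic protease, measured 365, 167 and 320 in M0 against 1323, 853 and 1285 in R0, and 1059, 1279 and 315 in M24 against 287, 210, 286 and 148 in R24. Muscle lay below reference on all arrays at 0 hr and above on all at 24 hr, with M24 replicate 3 just above the reference. The difference was 3.82 ± 0.65 (adjusted p = 0.0121), and the other asp-4 probe set was called gained too (3.18). ctsa-1.1, a cathepsin A-like carboxypeptidase gene outside the list, rose from -0.80 to 2.27 (difference 3.06 ± 0.56, adjusted p = 0.0167), a call lost without R0 replicate 3 (adjusted p = 0.0519). The cathepsin B-like gene cpr-1, known from the intestine, went from -0.32 to 1.57 (difference 1.90 ± 0.41, adjusted p = 0.0335), kept only without M24 replicate 3 or R24 replicate 1 and otherwise up to 0.0880. In the other direction, the aspartyl protease gene asp-14 went from 0.35 to -1.24 (difference -1.58 ± 0.31, adjusted p = 0.0226, up to 0.0608 without M0 replicate 3, M24 replicate 1, R24 replicate 2 or R24 replicate 4). The cystatin gene cpi-1, an inhibitor of cysteine proteases, fell by 3.34 ± 0.74 (adjusted p = 0.0387), kept only without M0 replicate 2 or any 1 M24 array and otherwise up to 0.101.

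Proteasome subunits, a theme taken from the study of these arrays and so no independent evidence of a direction, shifted upward as a list with few calls. The proteasome degrades ubiquitin-tagged proteins. Of 32 subunit genes, 31 had a difference above 0, 14 had an unadjusted p under 0.05, all upward, and 1 gained enrichment by the test over all probe sets. The median enrichment was -0.10 at 0 hr and 0.83 at 24 hr, and the median difference 0.88. At 0 hr the medians within the 2 shared scan days were -0.38 and -0.36. By muscle array, the median level relative to the reference mean was -0.08, -0.33 and 0.22 in M0 replicates 1 to 3, and 1.21, 1.31 and -0.03 in M24 replicates 1 to 3. In M24 replicates 1 and 2 all 32 subunits lay above the reference mean, and in M24 replicate 3 it was 15 of 32. The called member was pbs-7, a β subunit of the core particle: 360, 230 and 298 in M0 against 415, 355 and 362 in R0, and 1610, 1917 and 1099 in M24 against 807, 597, 634 and 631 in R24, so that muscle and reference overlapped at 0 hr and not at 24 hr. Its difference was 1.55 ± 0.30 (adjusted p = 0.0223; the other pbs-7 probe set gave 1.45 and was not called), a call lost without M0 replicate 3, M24 replicate 1, R0 replicates 1 or 3, or R24 replicate 2 (up to 0.0610). The array M24 replicate 3 decides the count: without it 15 subunits gained and the median was 1.39, and without M24 replicate 2 the median was 0.64. Without M0 replicate 3, M24 replicate 1, R0 replicate 1, R0 replicate 3 or R24 replicate 2 the count was 0.

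Tubulins, the subunits of microtubules, had the highest median of any list with all arrays in, 1.04 over 16 genes, with 12 differences above 0 and 8 at an unadjusted p under 0.05, all upward. The proteasome median was the higher of the pair without M24 replicate 3 (1.39 against 1.13) and without M0 replicate 1 (0.86 against 0.80). The median enrichment was -0.97 at 0 hr and 0.11 at 24 hr. By array it was -1.04, -1.16 and -0.53 in M0, and 0.15, 0.20 and -0.05 in M24, each array of M24 lying above each of M0. Against 1.04% of all genes, 3 of the 16 tubulins gained enrichment: the β-tubulin gene tbb-6 (-1.14 to 0.58, difference 1.72 ± 0.34, adjusted p = 0.0241), and the α-tubulin genes tba-2 (-0.87 to 0.58, 1.44 ± 0.31, adjusted p = 0.0317) and tba-6 (-1.23 to -0.05, 1.18 ± 0.23, adjusted p = 0.0225). Probe sets of tubulin genes may share signal where the sequences are alike, which makes the split between such members uncertain. Each of these calls was lost on leaving out any 1 of several arrays. For tbb-6 these were M0 replicates 2 or 3, M24 replicate 1, R0 replicates 1 or 2, or R24 replicates 2 or 4 (up to 0.0659). For tba-6 they were M0 replicates 1 or 3, M24 replicate 1, or R24 replicates 2 or 4 (up to 0.0640). The call of tba-2 was kept only without M0 replicate 3, M24 replicate 3, R0 replicate 2 or R24 replicate 1 (otherwise up to 0.0819). The count of gained tubulins was 5 without M24 replicate 3, 1 without M0 replicate 1, M0 replicate 2 or R0 replicate 1, and 0 without M24 replicate 1, R24 replicate 2 or R24 replicate 4.

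Mitochondrial ribosome proteins, which translate the mitochondrial genome, shifted the opposite way. Of 59 genes, 53 had a difference below 0, 3 lost and 0 gained enrichment, against 0.952% and 1.04% of all genes. The median difference was -0.51, from a median enrichment of 0.42 at 0 hr to -0.02 at 24 hr, and it was -0.32 without M24 replicate 3 and -0.72 without M24 replicate 2. By array the median was 0.65, 0.28 and 0.40 in M0, and 0.00, 0.30 and -0.37 in M24. M24 replicate 2 reached the level of M0 replicate 2 while M24 replicate 3 was the lowest. mrpl-50 was 829, 624 and 753 in M0 against 351, 250 and 233 in R0, and 527, 605 and 270 in M24 against 445, 597, 573 and 660 in R24, above the reference on all 3 arrays at 0 hr and overlapping it at 24 hr (difference -1.77 ± 0.38, adjusted p = 0.0340). mrps-12 went from 1.02 to -0.54 (difference -1.57 ± 0.35, adjusted p = 0.0390) and mrps-5 from 0.41 to -0.81 (difference -1.22 ± 0.27, adjusted p = 0.0370).

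Each of these 3 calls depended on which array was left out. mrpl-50 was kept only without M0 replicate 2, M24 replicates 2 or 3, R0 replicate 1 or R24 replicate 1 (otherwise up to 0.103), mrps-12 only without M24 replicates 2 or 3 or R0 replicate 1 (up to 0.109), and mrps-5 only without M24 replicate 3, R0 replicate 1 or R24 replicate 1 (up to 0.0992). No mitochondrial ribosome gene was called without M0 replicate 1, M0 replicate 3, M24 replicate 1, R0 replicate 2, R0 replicate 3, R24 replicate 2, R24 replicate 3 or R24 replicate 4, and 1 was without M0 replicate 2. Oxidative phosphorylation genes, which make up the respiratory chain, also lay mostly below 0 (30 of 38, median -0.28, or -0.10 without M24 replicate 3 and -0.04 without R0 replicate 2) with 0 calls by limma and 3 at an unadjusted p under 0.05. Cytosolic ribosome proteins hardly shifted in the median (-0.09, 75 genes). rpl-11.1, which encodes a large subunit protein, was the 1 lost member (0.09 to -1.64, difference -1.74 ± 0.37, adjusted p = 0.0337), kept only without M0 replicate 2, M24 replicate 3 or R24 replicate 1 (up to 0.0880).

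**Figure D4:**
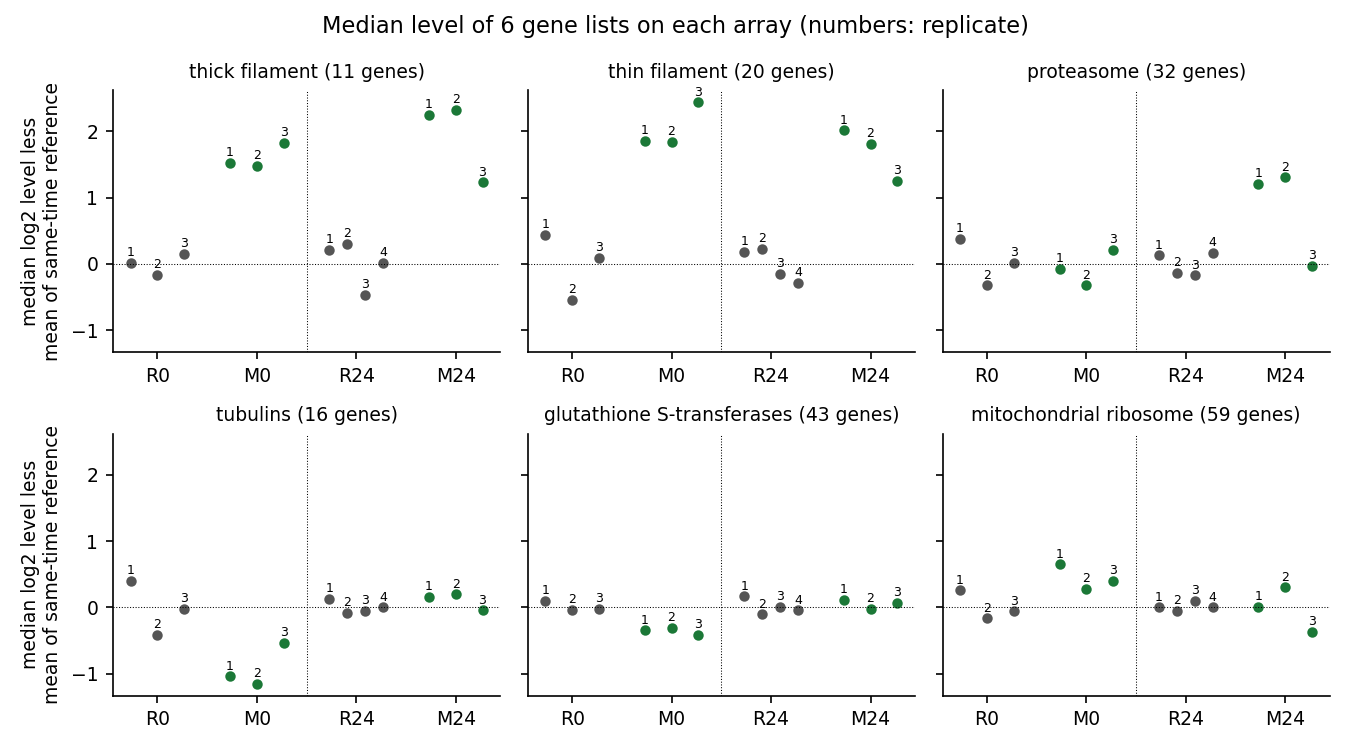
Each point is an array, and its height is the median over a list's genes of the log2 level less the mean of the reference at the same time. Proteasome medians of M24 replicates 1 and 2 (1.21 and 1.31) stand above all other arrays while M24 replicate 3 (-0.03) lies among the reference arrays, tubulins are low in M0 alone, and thick and thin filament genes are high in every muscle array.

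In energy metabolism, the largest change was a loss in glycolysis. pyk-2, a pyruvate kinase gene, was the 1 called gene of 18 in glycolysis and glycogen metabolism (median -0.07). It measured 504, 285 and 478 in M0 against 50.0, 45.3 and 33.2 in R0, and 78.8, 160 and 94.2 in M24 against 45.5, 58.1, 61.5 and 42.2 in R24. Muscle stayed above reference on every array at both times, by 3.28 at 0 hr and 1.05 at 24 hr (difference -2.23 ± 0.40, adjusted p = 0.0159). The isocitrate lyase and malate synthase gene icl-1, of the glyoxylate cycle that turns fat into sugar, was named after its values were seen: it went from 1.75 to -0.25 (difference -2.01 ± 0.44, adjusted p = 0.0357), and its other 2 probe sets were called lost too (-2.56 and -2.20). The icl-1 call was kept only without M0 replicate 1, M24 replicates 2 or 3, R0 replicate 1 or R24 replicate 1 (otherwise up to 0.0993). Citric acid cycle genes (21, median 0.15) had 0 calls by limma and 1 at an unadjusted p under 0.05, idh-1 coming closest (0.76 ± 0.28, adjusted p = 0.241). Their median had no settled sign: it was 0.45 without M24 replicate 3, -0.31 without M24 replicate 2, and below 0 too without M0 replicate 1, M24 replicate 1 or R0 replicate 1. Fatty acid desaturases and elongases (18, median -0.08, or 0.11 without M24 replicate 3) likewise had 0 and 1, with fat-6 the closest (-1.13 ± 0.36, adjusted p = 0.164), and sdha-2, a subunit of the succinate dehydrogenase complex, had the smallest p in oxidative phosphorylation (-1.37 ± 0.49, adjusted p = 0.220).

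Among losses, 1 set consists of genes that stood far above the reference in muscle at 0 hr and not at 24 hr. sdz-38, first described as a zygotic transcript dependent on the factor SKN-1, measured 1020, 936 and 1387 in M0 against 98.1, 52.6 and 116 in R0, and 92.8, 43.8 and 62.5 in M24 against 71.9, 79.8, 63.4 and 140 in R24. The M0 arrays stood apart and the 24 hr groups overlapped, with a difference of -4.12 ± 0.50 (adjusted p = 0.00241). clec-233, a C-type lectin domain gene, was at 473, 392 and 583 in M0 against 35.7, 36.8 and 37.4 in R0, and at 58.5, 48.4 and 42.9 in M24 against 39.8, 37.0, 41.7 and 38.6 in R24. Muscle stood far above reference at 0 hr and by little at 24 hr, for a difference of -3.36 ± 0.22 (adjusted p = 2.52e-05), and clec-233 was the 1 called gene of 220 in its family (median -0.03). R04B5.5 (-4.00 ± 0.46, adjusted p = 0.00182), Y97E10AR.2 (-3.94 ± 0.62, adjusted p = 0.00857) and M79.2 (-3.40 ± 0.61, adjusted p = 0.0152) followed the same course, from enrichments of 3.76, 3.49 and 2.86 at 0 hr to -0.24, -0.45 and -0.55 at 24 hr. The calls of these 5 genes held without any single array, but the other M79.2 probe set gave -0.85 and was not called (adjusted p = 0.435).

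Another set of losses was level with the reference at 0 hr and far below it at 24 hr. C25F9.2 had the largest loss of any gene. It measured 26.5, 33.5 and 28.8 in M0 against 23.7, 28.0 and 24.0 in R0, and 207, 185 and 123 in M24 against 2572, 3800, 2890 and 3833 in R24. All 0 hr values lay below the median intensity of their array (49.2 to 55.5) and the 24 hr groups were far apart, with a difference of -4.49 ± 0.30 (adjusted p = 2.52e-05). F26E4.5 (-3.88 ± 0.64, adjusted p = 0.0106) and the F-box gene fbxa-140 (-3.25 ± 0.56, adjusted p = 0.0127) likewise had enrichments of -0.31 and -0.03 at 0 hr, and of -4.19 and -3.28 at 24 hr. Their 0 hr values also lay below the array medians, at 18.4 to 30.8 and 13.1 to 18.9. For these low signals, level with the reference does not show equal expression. W05B10.4 turned from raised (1.52) to lowered (-1.65), a difference of -3.17 ± 0.50 (adjusted p = 0.00807).

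The nuclear hormone receptor gene nhr-43 was at 34.1, 29.0 and 34.8 in M0 against 30.4, 35.7 and 29.7 in R0, and at 55.1, 27.3 and 16.7 in M24 against 290, 281, 175 and 268 in R24 (difference -3.12 ± 0.46, adjusted p = 0.00582). Each 0 hr value of nhr-43 lay below the median intensity of its array, so similar values there do not show equal expression. zig-4, a secreted immunoglobulin domain protein that keeps axons in place, was at 101, 113 and 105 in M0 against 158, 107 and 119 in R0, and at 241, 154 and 127 in M24 against 1768, 1409, 952 and 1110 in R24 (difference -2.67 ± 0.36, adjusted p = 0.00431). In both, muscle was below every reference array at 24 hr and not at 0 hr. zig-4 was the 1 called gene of 12 in its family, whose median of -0.63 was the lowest of all lists with all arrays in, with 9 differences below 0. Both calls held without any single array.

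The globin gene glb-1 and the telomerase gene trt-1, both named after their values were seen, crossed from above to below the reference. glb-1 was at 2238, 1875 and 2155 in M0 against 1381, 787 and 1213 in R0, and at 409, 196 and 309 in M24 against 1880, 937, 1383 and 626 in R24. It was higher in muscle on every array at 0 hr and lower on every array at 24 hr, with a difference of -2.86 ± 0.51 (adjusted p = 0.0155). trt-1, the catalytic subunit of telomerase, went from 1.19 to -1.70 (difference -2.88 ± 0.53, adjusted p = 0.0167).

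Chromatin and cell cycle genes gave few calls. lin-53, a histone-binding WD40 protein shared by several chromatin complexes, had the most precise gain among the named genes: 116, 111 and 122 in M0 against 574, 516 and 640 in R0, and 257, 317 and 308 in M24 against 319, 335, 318 and 312 in R24. It was far below reference at 0 hr and overlapped it at 24 hr, a difference of 2.17 ± 0.18 (adjusted p = 2.70e-04), while its other probe set gave 0.92. lin-53 was named after its values were seen. DNA replication (27 genes, median -0.14, 5 at an unadjusted p under 0.05), cell division (30, -0.31, 2) and histone genes (26, 0.15, 5) had 0 calls by limma in either direction. Closest were lig-1, DNA ligase (0.56 ± 0.19, adjusted p = 0.189), the kinase gene air-2 (-1.53 ± 0.48, adjusted p = 0.153) and his-64 (-1.20 ± 0.31, adjusted p = 0.0826).

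In protein synthesis and folding, translation factors (37, median 0.14), aminoacyl-tRNA synthetases (32, 0.19), the chaperonin with its partners (14, -0.37) and the vacuolar proton pump (19, 0.25) had 0 calls by limma and 4, 1, 4 and 3 at an unadjusted p under 0.05. These medians moved with M24 arrays. Without M24 replicate 3 they were 0.39, 0.34, -0.18 and 0.67, and without M24 replicate 2 they were 0.01, -0.01, -0.51 and -0.05. The eIF4E gene ife-1 came closest of them (1.73 ± 0.41, adjusted p = 0.0517). The smallest p of the other lists belonged to lars-2, a leucyl-tRNA synthetase gene (-1.12 ± 0.38, adjusted p = 0.190), cct-5 (-0.58 ± 0.20, adjusted p = 0.200) and vha-8 (1.55 ± 0.41, adjusted p = 0.0864).

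Marker genes of the other cell types were followed as well. Over 14 pharynx genes the median enrichment was -1.11 at 0 hr and -0.50 at 24 hr, 3 members gained enrichment against 1.04% of all genes, and the median difference was 0.78, or 0.48 without M24 replicate 3. The summed intensity of the list ran from 5008 to 6857 in R0 and from 1389 to 1532 in M0 at 0 hr, and from 1884 to 2346 in R24 and from 1293 to 1759 in M24 at 24 hr, with no overlap between muscle and reference at either time. phat-5, a pharyngeal gland gene, was at 224, 150 and 212 in M0 against 2610, 2005 and 1909 in R0, and at 462, 112 and 149 in M24 against 147, 184, 400 and 298 in R24 (difference 3.22 ± 0.64, adjusted p = 0.0251). phat-2 gained 2.47 ± 0.51 (adjusted p = 0.0278) and tnc-2, the troponin C of pharyngeal muscle, 1.45 ± 0.32 (adjusted p = 0.0367), both lowered at 0 hr and uncalled at 24 hr. phat-5 was lost without M0 replicates 2 or 3, R0 replicates 1 or 3 or R24 replicate 2 (up to 0.0678), phat-2 was kept only without M24 replicates 2 or 3, R0 replicate 2, or R24 replicates 1 or 3 (up to 0.0818), and tnc-2 only without M24 replicate 3, R0 replicate 3 or R24 replicate 1 (up to 0.0943).

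peb-1, a DNA-binding protein best known from pharyngeal gene regulation and outside the list, did turn to raised: 132, 111 and 107 in M0 against 359, 204 and 315 in R0, and 349, 857 and 336 in M24 against 147, 167, 94.0 and 132 in R24 (difference 3.11 ± 0.47, adjusted p = 0.00589). Its other probe set gave 0.22. The KCNQ-type potassium channel gene kqt-2 (-2.33 to 1.07, difference 3.40 ± 0.55, adjusted p = 0.00929), Y39B6A.1 (-1.30 to 2.65, 3.95 ± 0.69, adjusted p = 0.0144) and F52A8.3 (-3.90 to -0.72, 3.18 ± 0.37, adjusted p = 0.00182) complete the largest gains, and these 4 calls held without any single array. The other probe sets of kqt-2 lay between -0.08 and 1.18 and that of Y39B6A.1 at 2.63, and none of these was called. F52A8.3 measured 24.8, 26.4 and 23.9 in M24, below the median intensity of each array, and 32.3 to 60.0 in R24. Both groups were thus low at 24 hr, which does not show a rise of F52A8.3 in muscle.

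Neuron genes (32, median difference 0.12, enrichment -0.91 at 0 hr and -0.60 at 24 hr) had 0 calls by limma and 7 at an unadjusted p under 0.05, with unc-30 the closest (0.78 ± 0.24, adjusted p = 0.152). Their summed intensity was 12798 to 14402 in R0, 5388 to 6271 in M0, 10056 to 16923 in R24 and 5301 to 6844 in M24. Of 106 neuropeptide genes (median 0.04), nlp-89 gained enrichment (1.56 ± 0.27, adjusted p = 0.0127). Epidermal genes (24, median -0.18, or -0.38 without M24 replicate 3 and -0.01 without M24 replicate 1) summed to 14827 to 16530 in R0 and 4188 to 5953 in M0, and to 12876 to 17567 in R24 and 3602 to 4933 in M24. Among them the cell fusion protein gene eff-1 went further down, from -1.33 to -2.68 (difference -1.35 ± 0.26, adjusted p = 0.0225, lost without M0 replicate 3, M24 replicate 1, R0 replicates 1 or 3 or R24 replicate 2, up to 0.0638), and its other probe set, at -0.98, was not called.

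Of 146 cuticle collagens (median 0.00), col-97 gained 3.18 ± 0.42 (adjusted p = 0.00405) and col-76 2.03 ± 0.37 (adjusted p = 0.0167, or 0.0523 without R0 replicate 3), each from lowered at 0 hr to uncalled at 24 hr. The other col-97 probe set was not called (adjusted p = 0.168). Their list summed to 15742 to 31199 in R0, 10678 to 11842 in M0, 14881 to 26438 in R24 and 8959 to 10508 in M24. Intestine (17, median 0.03, cpr-1 its 1 gain), germline and maternal (24, -0.08), coelomocyte (4, 0.80) and glia genes (6, 0.31) gave no other call, the closest being pgl-3 (-1.07 ± 0.33, adjusted p = 0.155), cup-4 (1.07 ± 0.26, adjusted p = 0.0578) and kcc-3 (-0.82 ± 0.36, adjusted p = 0.345). Germline and maternal genes summed to 2492 to 3030 in R0 and 1938 to 2242 in M0, and to 5879 to 7572 in R24 and 3429 to 6680 in M24, and intestinal genes to 1381 to 1655 in R0 and 1207 to 1547 in M0, and to 1994 to 3355 in R24 and 2148 to 2452 in M24. For these lists muscle and reference overlapped at 24 hr. No marker was at 0, as RMA gives none, and the lowest intensity of any marker was 10.2. What part these cells had in the gains and losses was not tested.

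**Figure D5:**
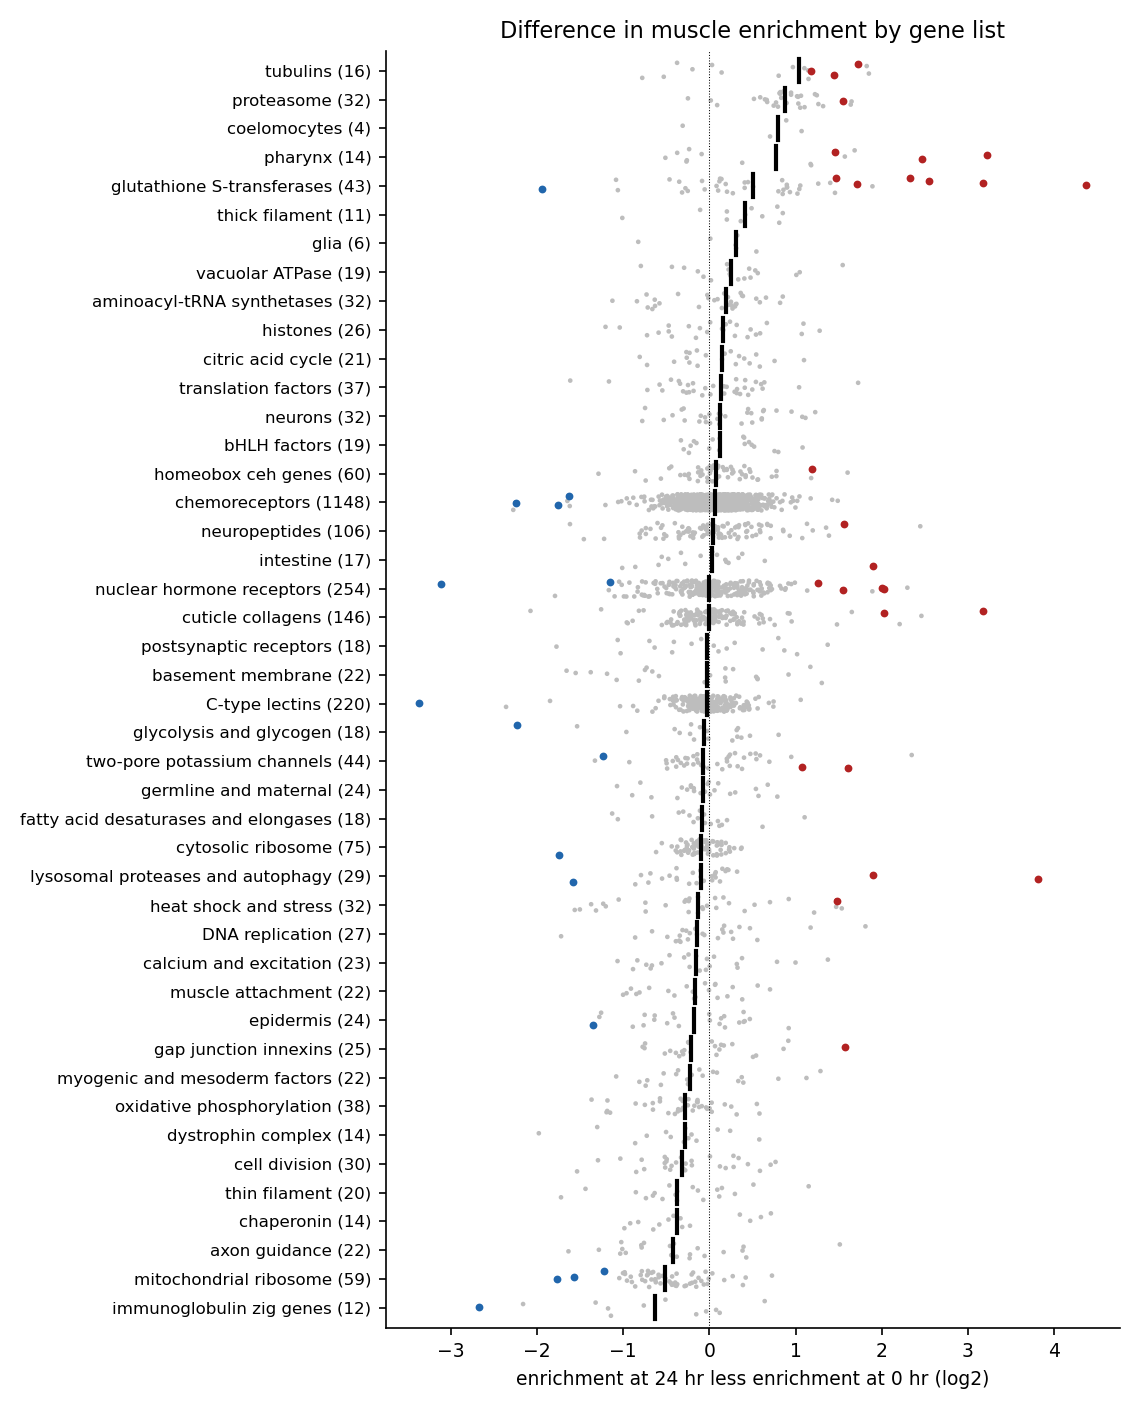
Points are genes and their x position is the enrichment at 24 hr less that at 0 hr on the log2 scale, in red where gained and in blue where lost, with the black bar at the list's median and the number of genes in brackets. With all arrays in, tubulins (1.04) and the proteasome (0.88) have the highest medians and the zig genes (-0.63) and mitochondrial ribosome (-0.51) the lowest, and large families such as the chemoreceptors centre near 0.

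Large receptor and channel families were centred near 0 and gave isolated calls. Of 254 nuclear hormone receptor genes (median 0.00), 4 gained and 2 lost enrichment, near the 1.04% and 0.952% of all genes. The gains were nhr-213 (2.03 ± 0.44, adjusted p = 0.0352), nhr-238 (2.00 ± 0.46, adjusted p = 0.0474), nhr-208 (1.55 ± 0.36, adjusted p = 0.0471) and nhr-55 (1.26 ± 0.26, adjusted p = 0.0280), all lowered at 0 hr and uncalled at 24 hr. On the 24 hr arrays nhr-55 measured 28.2 to 38.3, each below the median intensity of its array, which does not show a rise in muscle. nhr-69 lost enrichment (-1.16 ± 0.24, adjusted p = 0.0305) from raised to uncalled. Apart from that of nhr-43, each of these calls was lost on leaving out any 1 of several arrays. nhr-213 was kept only without M24 replicates 1 or 3 or R24 replicate 1 (otherwise up to 0.0928), nhr-238 only without M24 replicate 3, R0 replicate 2 or R24 replicate 1 (0.128), nhr-208 only without M24 replicates 1 or 3 (0.114), nhr-55 only without M0 replicate 1, M24 replicates 2 or 3, R0 replicate 3 or R24 replicate 1 (0.0730) and nhr-69 only without M0 replicate 2, M24 replicates 2 or 3, or R24 replicates 1 or 3 (0.0756).

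Chemoreceptor genes, 1148 in number with a median of 0.06, gave 3 losses, below the 0.952% of all genes, all kept without any single array: sri-19 stayed raised, from 3.76 to 1.51 (difference -2.25 ± 0.37, adjusted p = 0.0106), while srh-169 (0.25 to -1.50, -1.75 ± 0.30, adjusted p = 0.0137) and srx-45 (-0.60 to -2.24, -1.63 ± 0.28, adjusted p = 0.0118) became lowered. Among 44 genes of the TWK potassium channels, which carry leak currents, twk-11 gained 1.60 ± 0.25 (adjusted p = 0.00807), from lowered to uncalled. On the M24 and R24 arrays twk-11 measured 30.1 to 42.8, each below the median intensity of its array, which does not show a rise in muscle. twk-12 was at 145, 120 and 123 in M0 against 70.6, 76.8 and 85.8 in R0, and at 181, 231 and 161 in M24 against 58.5, 51.8, 52.4 and 52.7 in R24, above reference on every array at both times and by more at 24 hr (difference 1.08 ± 0.21, adjusted p = 0.0250). Without M0 replicate 3, M24 replicate 1, R0 replicate 3, or R24 replicates 2, 3 or 4 the twk-12 call was lost (up to 0.0778). twk-46 lost enrichment (-1.23 ± 0.26, adjusted p = 0.0310), kept only without M24 replicate 3, R0 replicate 3, or R24 replicates 1 or 3 (up to 0.0709).

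Homeobox ceh genes (60, median 0.08) gave 1 gain, ceh-8 (1.19 ± 0.28, adjusted p = 0.0497), kept only without M24 replicate 2 or R0 replicate 1 (otherwise up to 0.127). The bHLH factors (19, median 0.12) had 0 calls by limma and 2 at an unadjusted p under 0.05, with hlh-10 the closest (0.80 ± 0.26, adjusted p = 0.168). Axon guidance genes (22, median -0.43, 17 below 0) had 0 and 6, and the netrin gene unc-6, for a secreted axon guidance cue, was the closest, upward (1.51 ± 0.44, adjusted p = 0.122). At 0 hr unc-6 was lower in muscle on every array, at 514, 372 and 632 in M0 against 1173, 1121 and 1076 in R0. At 24 hr the groups overlapped, at 169, 440 and 353 in M24 against 291, 293, 177 and 207 in R24. Sperm phosphatase genes gsp-3 and gsp-4, named after their values were seen, gained 2.04 ± 0.36 (adjusted p = 0.0137) and 2.11 ± 0.36 (adjusted p = 0.0121) and were the 2 called genes of 41 major sperm protein and sperm phosphatase genes (median -0.05), a list set up after the values were seen. Their sequences are near-identical, so the signal of the pair cannot be assigned to either gene.

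Many of the moved genes have no descriptive name. Of gained genes 36.0% and of lost genes 44.2% carried only a sequence name, against 39.2% of all genes measured, and these include C25F9.2, R04B5.5, Y97E10AR.2, F26E4.5 and M79.2 among the losses and Y39B6A.1 and F52A8.3 among the gains.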

How the data were processed

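The study profiled 13 RNA samples on Affymetrix C. elegans arrays, each a separate preparation per the labels. The authors amplified the RNA in 2 rounds, and deposited RMA intensity values (version not given in the sources used here) on a linear scale, in a table where the 2 times share almost no identical values and were taken as separate RMA runs. Deposited scanner settings (other text) served only to find scan days and chip lots and are held for 12 arrays. All values were taken to log2 with no pseudocount. limma 3.58.1 (R 4.3.3; lmFit, eBayes, two-sided moderated tests, SE of the fit) took the 4 group means as terms for each of 22548 probe sets, with Benjamini-Hochberg adjustment over all of them, a threshold of 0.05 and a fold minimum of 1.7, the study's. The array count limits the precision. Symbols came from the platform annotation, updated through RefSeq for 20701 probe sets; 887 probe sets naming several genes and 895 naming none were left out of gene counts. Lists and members (44 lists; 23 listed names were not measured) were chosen with earlier results of these data known. Genes named are 4 muscle markers, the 10 largest gains and losses, up to 4 called members of a list in each direction or its smallest p, and those stated as chosen afterwards. The procedure was tested on simulated data. Array weights used the gene-by-gene method, since the default did not converge. Figures were drawn with matplotlib 3.10.9.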

Additional observations from a re-analysis of the deposited data

Results flagged for a closer look

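Enrichment at 24 hr differed from that at 0 hr, by the test of the difference itself (limma, Benjamini-Hochberg over all probe sets), for 211 probe sets upward and 224 downward, and for 65 of the named genes. The following log2 differences are those, grouped by the state of the gene at each time. Lowered at 0 hr and uncalled at 24 hr were gst-31 (4.37), kqt-2 (3.40), phat-5 (3.22), col-97 (3.18), F52A8.3 (3.18), gst-39 (3.17), gsr-1 (2.65), gst-5 (2.55), phat-2 (2.47), lin-53 (2.17), nhr-213 (2.03), col-76 (2.03), nhr-238 (2.00), tbb-6 (1.72), gst-33 (1.71), twk-11 (1.60), inx-20 (1.57), nlp-89 (1.56), nhr-208 (1.55), prdx-2 (1.48), tnc-2 (1.45), tba-2 (1.44), nhr-55 (1.26), ceh-8 (1.19) and tba-6 (1.18). Raised at 24 hr were Y39B6A.1 (3.95), asp-4 (3.82), peb-1 (3.11), ctsa-1.1 (3.06), gsto-3 (2.33), gsp-4 (2.11), gsp-3 (2.04), cpr-1 (1.90), pbs-7 (1.55), gsto-2 (1.47), glrx-10 (1.26) and twk-12 (1.08), of which asp-4 and peb-1 were lowered at 0 hr.

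Lowered at 24 hr and uncalled at 0 hr were C25F9.2 (-4.49), F26E4.5 (-3.88), fbxa-140 (-3.25), nhr-43 (-3.12), trt-1 (-2.88), glb-1 (-2.86), zig-4 (-2.67), srh-169 (-1.75), rpl-11.1 (-1.74), srx-45 (-1.63), asp-14 (-1.58), twk-46 (-1.23) and mrps-5 (-1.22). Raised at 0 hr were sdz-38 (-4.12), R04B5.5 (-4.00), Y97E10AR.2 (-3.94), M79.2 (-3.40), clec-233 (-3.36), W05B10.4 (-3.17), sri-19 (-2.25), pyk-2 (-2.23), icl-1 (-2.01), gst-22 (-1.94), mrpl-50 (-1.77), mrps-12 (-1.57) and nhr-69 (-1.16). Of the remaining losses, eff-1 (-1.35) was lowered at both times and cpi-1 (-3.34) called at neither.

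In R24, the 1 group of 4 arrays, a single array stood apart from the other 3, relative to the range of the group, in 8 of the 100 named genes. These were replicate 1 in F26E4.5 (log2 intensity 8.73) and twk-12 (5.87), replicate 2 in nlp-89 (6.61), replicate 3 in slo-2 (5.76), ife-1 (9.73) and nhr-43 (7.45), and replicate 4 in lig-1 (6.76) and hlh-10 (4.66). Some gaps were small, with the other 3 arrays at 6.49 to 6.50 in nlp-89, 6.63 to 6.64 in lig-1 and 5.70 to 5.72 in twk-12. Chance alone marks about 1 in 20 groups in this way.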

How the results depend on the processing

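Under no alternative did any of the 435 called probe sets change sign. The counts moved most with the weighting of arrays. Array weights by the gene-by-gene method, which gave M24 replicate 3 the lowest weight (0.194), called 1033 probe sets gained and 1207 lost. The default method, tried first and not converging (weights from 4.49e-04 to 33.8), called 369 and 390. Gene-by-gene weights also called 7 structural and excitation genes gained and 11 lost, 25 proteasome, 19 glutathione S-transferase and 7 tubulin genes gained, and 10 mitochondrial ribosome genes lost. Gained genes lowered at 0 hr alone then numbered 366 and those raised at 24 hr alone 250, and lost genes 199 (raised at 0 hr alone) and 445 (lowered at 24 hr alone). Median differences became 0.033 for myogenic and mesoderm factors, 0.80 for glutathione S-transferases and 0.16 for lysosomal genes.

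Replicate numbers were not taken to pair the arrays, since 1 same-numbered pair did not deviate together: muscle and reference correlated at 0.22, 0.32 and 0.15 at 0 hr and at 0.21, -0.04 and 0.38 at 24 hr, and M0 replicate 3 and M24 replicate 2 correlated best with another number. With the replicate number as a block, leaving 4 residual degrees of freedom, 78 probe sets were gained and 94 lost, 152 of the 435 among them, with 0 proteasome and 0 tubulin genes gained, 0 mitochondrial ribosome genes lost, and 55, 9, 36 and 29 genes in those same 4 groups (gained and lowered at 0 hr, gained and raised at 24 hr, lost and raised at 0 hr, lost and lowered at 24 hr). Quantile normalization of all arrays together called 3 structural genes gained, 2 lost and 4 proteasome genes gained, with 37 gained genes raised at 24 hr and 103 lost genes raised at 0 hr. Within each time it called 1, 2 and 2, with 35 raised at 24 hr. A trended, robust prior called 0 proteasome genes gained and 0 mitochondrial ribosome genes lost. Leaving out the dimmest 25 percent of probe sets gave medians of -0.41 for glia, 0.80 for glutathione S-transferases, -0.95 for zig and 0.15 for TWK channel genes. A pseudocount of 16, scan day as a random block and dropping the fold minimum left every count of calls above within 1.5 times of its value, and for single named genes the pseudocount ended 6 calls and the random block 5, beside 36 ended by the replicate block, 11 by the trended prior and 6 and 8 by the quantile normalizations (all arrays, within each time). Medians over the mean of all probe sets of a gene stayed within the spread between arrays. The cause of these shifts was not tested.

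Leaving out 1 array at a time, gained probe sets ranged from 92 to 420 and lost ones from 114 to 302. Structural and excitation genes ranged from 0 to 4 gained and 0 to 4 lost, proteasome genes from 0 to 15, glutathione S-transferases from 3 to 8, tubulins from 0 to 5 and mitochondrial ribosome genes lost from 0 to 3. The 4 groups ranged from 69 to 168, 7 to 128, 40 to 86 and 38 to 126, and the pharynx median from 0.48 to 0.96. With 3 or 4 arrays a group and 1 M24 array that stands apart, the typical standard error of a gene's difference was 0.30. A call took a difference well above its standard error. The differences of pat-3, acr-16 and stn-2 were several times their standard errors and were still not called. An uncalled gene can therefore differ by more than its standard error, and dim genes have the least signal over background.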
